A study of Mus musculus with 4 samples.

Results

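Oxidative phosphorylation genes were taken as all protein-coding genes on chromosomes 1 to 19 and X whose symbol starts with Nduf, Sdh, Uqcr or Atp5, or is Cox followed by a digit. The rule found 109 genes among 21631 in the GRCm38 gene table: 49 of complex I, 8 of complex II, 8 of complex III, 27 of complex IV and 17 of complex V. Each gene was put in a complex by its symbol prefix alone, and the rule takes subunits and assembly factors together. Deaf1, a transcription factor, had been immunoprecipitated from the established mouse myoblast line C2C12, and the bound DNA was sequenced (ChIP-seq). The 2 ChIP libraries carry the replicate numbers 1 and 2, and an input library without antibody carries each number too. The cells were grown in DMEM with serum, the labels name no treatment, and there is no second condition, genotype or time. The labels do not say whether the replicates were separate cultures, and peak lists hold no expression values against which the cell type could be checked.

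These genes encode the machinery with which mitochondria make ATP. Complexes I and II pass electrons from NADH and succinate to ubiquinone, complex III passes them to cytochrome c, complex IV passes them to oxygen, and complex V, the ATP synthase, uses the resulting proton gradient. Muscle is rich in these complexes. ETS-family factors such as GABP (also called NRF-2) and the unrelated factor NRF1 are known regulators of many of them. Deaf1 is known to recognise DNA with TTCG half-sites.

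A region, in what follows, is a row of the authors' combined list for both replicates, and a gene was counted as having one when the row lay within 1 kb of the start or end of its annotated span. Each region also carries the authors' irreproducible discovery rate (IDR), where a low value means that its rank repeats well between replicates. A peak belongs to the list of 1 replicate. Its fold enrichment is the authors' ratio of ChIP to background at the summit, and the number of ChIP fragments stacked at the summit was recovered from the deposited fold and p.

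Sequences under the strongest regions are shown first, because the genes with and without peaks differed in a short stretch of letters. They are the parts of the RefSeq promoter windows (GRCm38.p6, 250 bases before to 50 after an annotated start) that lay under the region, in the direction of the gene. The 8 shown belong to the members with the largest mean fold enrichment for which the window was in the table. Capitals mark CCGGAAG or its reverse complement CTTCCGG, the letters of a strong ETS site.
Sdhaf3: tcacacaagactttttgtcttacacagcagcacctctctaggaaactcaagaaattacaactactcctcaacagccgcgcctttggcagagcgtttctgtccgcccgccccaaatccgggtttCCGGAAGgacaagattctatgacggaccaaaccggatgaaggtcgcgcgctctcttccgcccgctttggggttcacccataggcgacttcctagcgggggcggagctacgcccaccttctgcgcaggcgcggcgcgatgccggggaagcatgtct
Ndufs3: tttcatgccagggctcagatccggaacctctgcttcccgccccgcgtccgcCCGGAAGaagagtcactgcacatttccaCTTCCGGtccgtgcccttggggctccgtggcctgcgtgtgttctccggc
Cox8a: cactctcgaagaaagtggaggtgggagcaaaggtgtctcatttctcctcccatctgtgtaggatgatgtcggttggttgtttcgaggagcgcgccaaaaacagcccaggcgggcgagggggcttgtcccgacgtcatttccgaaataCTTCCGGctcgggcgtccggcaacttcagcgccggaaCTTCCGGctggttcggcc
Cox16: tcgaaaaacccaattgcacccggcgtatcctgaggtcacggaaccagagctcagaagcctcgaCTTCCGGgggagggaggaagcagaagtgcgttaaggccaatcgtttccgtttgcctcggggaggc
Ndufaf1: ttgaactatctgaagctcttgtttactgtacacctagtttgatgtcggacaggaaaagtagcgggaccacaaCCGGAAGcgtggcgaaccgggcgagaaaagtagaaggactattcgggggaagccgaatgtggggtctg
Ndufa12: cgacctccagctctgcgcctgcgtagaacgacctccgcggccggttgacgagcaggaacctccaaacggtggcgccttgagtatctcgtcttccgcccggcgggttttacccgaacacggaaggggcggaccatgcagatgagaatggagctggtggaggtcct
Sdhaf2: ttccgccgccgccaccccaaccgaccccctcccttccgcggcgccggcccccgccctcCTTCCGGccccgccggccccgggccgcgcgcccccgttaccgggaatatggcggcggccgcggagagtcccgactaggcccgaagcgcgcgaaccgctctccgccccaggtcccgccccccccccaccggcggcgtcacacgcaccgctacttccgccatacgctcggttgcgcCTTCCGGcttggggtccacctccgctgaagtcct
Cox5b: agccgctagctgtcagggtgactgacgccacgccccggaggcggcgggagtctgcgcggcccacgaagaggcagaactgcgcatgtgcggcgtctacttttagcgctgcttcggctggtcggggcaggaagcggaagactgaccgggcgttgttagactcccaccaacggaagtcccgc

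In the order shown, the stretches are chr6:6955768-6956045 on the plus strand (Sdhaf3), chr2:90904672-90904799 on the minus strand (Ndufs3), chr19:7217567-7217768 on the minus strand (Cox8a), chr12:81485088-81485215 on the minus strand (Cox16), chr2:119662785-119662924 on the minus strand (Ndufaf1), chr10:94198901-94199064 on the plus strand (Ndufa12), chr19:10525160-10525425 on the minus strand (Sdhaf2) and chr1:36691358-36691536 on the plus strand (Cox5b). The Ndufs3 stretch holds the letters once in each orientation, and those of Cox8a and Sdhaf2 hold them 2 times in the reverse orientation. Ndufa12 and Cox5b hold the shorter CGGAAG 2 times each, counted on both strands, but not CCGGAAG. Where CCGGAAG was present, the centre of the nearest match lay between 2 and 36 bp from the replicate 2 summit.

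Of the 109 genes, 28 (25.7%) had a region at a gene end, against 6.97% of the 21522 other protein-coding genes. With the peaks of replicate 1 alone the count was 30 (27.5%), against 7.51% of other genes. With those of replicate 2 alone it was 42 (38.5%), against 11.2%. Peaks of both replicates lay at 29 genes, of replicate 2 only at 13, of replicate 1 only at 1, and of neither at 66, of which 34 belong to complex I, 4 to complex II, 5 to complex III, 14 to complex IV and 9 to complex V. No test of the list was made, since it was chosen with results of these data known. Among the 78 genes of mitochondrial ribosomal proteins 26 (33.3%) had a region, and among the 97 genes of cytosolic ribosomal proteins 31 (32%), so the respiratory chain genes did not have the highest share of these 3 lists.

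**Figure D1:**
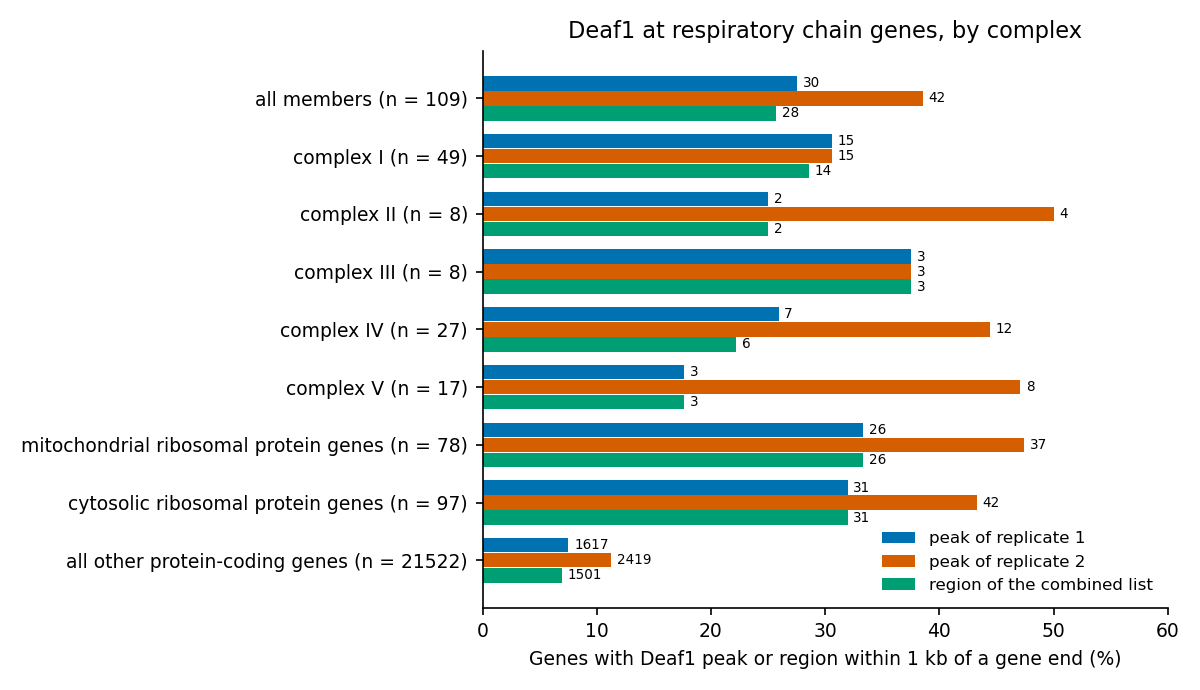
Share of genes (%) with a Deaf1 peak of replicate 1, a peak of replicate 2 or a region of the combined list within 1 kb of a gene end, for the 5 complexes, 2 lists of ribosomal protein genes and all other protein-coding genes; the number at each bar is the count of genes. The share with a region is 25.7% over all 109 members and 6.97% over the other genes.

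By complex, 14 of 49 genes of complex I (28.6%), 2 of 8 of complex II (25%), 3 of 8 of complex III (37.5%), 6 of 27 of complex IV (22.2%) and 3 of 17 of complex V (17.6%) had a region. Each share lies above the 6.97% of other genes, but 1 gene is 12.5% of complex II or III, so the order of the complexes cannot be read from them. From replicate 1 to replicate 2 the share of other genes went from 7.51% to 11.2%, and the counts of the complexes, which were not tested against one another, went as follows. Complex I had 15 genes with a peak in either library and complex III had 3 in either. Complex V went from 3 genes in replicate 1 to 8 in replicate 2, complex IV from 7 to 12 and complex II from 2 to 4. By role, assembly factors, which build the complexes without staying in them, had a region at 7 of 21 genes (33.3%) and all subunits at 21 of 88 (23.9%). The roles were not tested against one another, and for some genes of each the replicate 2 summit lay nearer to another gene. None of the 8 isoforms limited to certain tissues, among them the muscle isoforms Cox6a2, Cox7a1 and Cox8b, had a peak in either replicate. Of all other genes 11.7% had one, so that a count of 0 among 8 genes is near the background.

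The core subunits of complex I carry its electron path. Of the 7, 4 (57.1%) had a region, against 6.97% of other genes: Ndufs1, Ndufs3, Ndufs8 and Ndufv1. At an IDR of at most 0.05 only 1 of the 7, Ndufs3, kept a region, against 3.12% of other genes. Ndufs1, the largest core subunit, had the strongest region of all 109 genes, on chromosome 1 from 63175353 to 63178196. Its summit was covered by 104 fragments in the first library, with a 95% exact Poisson interval of 85.0 to 126, and by 133 in the second, with 111 to 158, and its fold enrichment was 27.6 and 34.3, a mean of 31.0 ± 4.7 (SD, n = 2). Within 1 kb of an end of the Ndufs1 span lay 3 peaks of replicate 1 and 1 of replicate 2. The region is 2844 bp long, with an IDR of 0.513. This IDR goes with a score of 121 in the combined list, the lowest of any region at a gene end. The regions at Ndufaf8, Ndufb3, Ndufb7, Uqcrq, Atp5e and Atp5md had the same score and IDR. By fold, however, the strongest Ndufs1 peak ranked 22 of 1860 in replicate 1 and 17 of 3126 in replicate 2, with summits 8 bp apart. The replicate 2 summit lay 95 bp inside Ndufs1 and 104 bp from an end of Eef1b2, a translation elongation factor gene, and nothing in the files assigns it to either.

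The other core subunits with a region were far lower. Ndufs3, which sits in the arm that faces the mitochondrial matrix, had 37 fragments in replicate 1 and 40 in replicate 2, a fold enrichment of 13.6 and 13.3 and an IDR of 0.0123. Ndufv1, which binds the flavin that takes electrons from NADH, had 25 and 32 fragments and a fold of 8.91 and 6.78. Ndufs8, an iron-sulfur subunit, had 15 and 25 fragments and a fold of 5.71 and 8.42. The gap from Ndufs1 to each of these exceeds the counting intervals, whereas those of Ndufv1 and Ndufs8 overlap in both replicates.

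Accessory subunits of complex I surround the core, and 33 Nduf genes were counted as such by symbol alone. Of these, 7 (21.2%) had a region, against 6.97% of other genes, with Ndufb9 and Ndufa12 the strongest by mean fold. Ndufb9 had 61 fragments in replicate 1 (46.7 to 78.4) and 79 in replicate 2 (62.5 to 98.5), the second highest numbers after Ndufs1. Because its background was also high, 4.72 and 4.92 fragments against genome-wide minima of 1.80 and 2.09, its fold enrichment was only 10.8 and 13.5. Its IDR of 0.00851 was the lowest of the 28 genes. Ndufa12 had 36 and 54 fragments and a fold of 10.2 and 9.43. Ndufb5, Ndufa13, Ndufa10, Ndufb7 and Ndufb3 had mean folds between 5.68 and 9.49. Ndufa13, also known as the cell death regulator GRIM-19, repeated poorly in fold, with 5.56 and 11.7, although the fragment numbers, 29 and 35, have overlapping intervals; its background was 4.39 in replicate 1 and 2.09 in replicate 2.

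Ndufb6 is counted apart. It had a peak in each replicate but no region, because the replicate 1 peak lay 16 bp upstream of its start and the replicate 2 peak lay beyond its other end. The complex I assembly factors with a region were Ndufaf1, Ndufaf7 and Ndufaf8, 3 of 8 (37.5%), against 6.97% of other genes. Ndufaf1, which helps to join the membrane arm, had 38 and 55 fragments and a fold of 7.23 and 14.4, a mean of 10.8 ± 5.0 (SD, n = 2). Ndufaf7, a methyltransferase needed for complex I assembly, had 28 and 39 fragments with a fold of 10.4 and 8.22. Ndufaf8 had 25 and 24 fragments with a fold of 4.15 and 6.41 and an IDR of 0.513.

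In complex II, the succinate dehydrogenase of the citric acid cycle, regions lay at 2 of the 4 assembly factor genes and at 0 of the 4 subunit genes. Of all other genes 6.97% had a region, so a count of 0 among 4 is near the background. In replicate 2 alone, 2 of 4 genes of each kind had a peak. Sdhaf3, which aids the insertion of iron-sulfur clusters into Sdhb, had 40 fragments in replicate 1 (28.6 to 54.5) and 46 in replicate 2 (33.7 to 61.4), with a fold of 12.7 and 15.2, a mean of 13.9 ± 1.8 (SD, n = 2) and an IDR of 0.00977. Sdhaf2, which attaches flavin to Sdha, had 21 and 34 fragments with a fold of 7.85 and 11.3. Both replicates placed Sdhaf3 among their stronger peaks, at ranks 158 of 1860 and 136 of 3126 by fold. Sdhb, the iron-sulfur subunit, and Sdhd, a membrane anchor, had a peak of replicate 2 only, with 20 and 21 fragments. Sdha and Sdhc had none, and neither had the assembly factors Sdhaf1 and Sdhaf4.

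In complex III the 3 genes with a region were Uqcrfs1, Uqcrh and Uqcrq. Uqcrfs1, the Rieske iron-sulfur protein, had 20 and 31 fragments and a fold of 7.50 and 8.20. Uqcrh, the hinge protein near cytochrome c, had 23 and 30 fragments and a fold of 6.60 and 7.95. Uqcrq, a small membrane subunit, was lower in fold, with 4.65 and 5.75. The core proteins Uqcrc1 and Uqcrc2 had no peak.

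In complex IV, regions lay at the structural subunit genes Cox8a, Cox5b, Cox6b1 and Cox6a1 and at the assembly factor genes Cox16 and Cox17. Cox8a had 28 fragments in replicate 1 (18.6 to 40.5) and 46 in replicate 2 (33.7 to 61.4), with a fold of 10.4 and 15.2. Cox16 had 29 and 35 fragments with a fold of 10.7 and 11.7, and Cox17, the copper chaperone of the enzyme, had 25 and 28 with a fold of 8.91 and 7.43. The counting intervals of these 3 genes overlap in each replicate. Cox5b had a fold of 7.70 and 11.3, Cox6b1 of 8.92 and 5.90, and Cox6a1 of 7.50 and 5.31. In replicate 2 only, peaks lay at Cox10 and Cox15, both enzymes of haem A synthesis, at the assembly factors Cox14 and Cox20, and at the subunits Cox4i1 and Cox7c. Their summits held 15 to 25 fragments. Cox18, a translocase for a mitochondrially encoded subunit, had the only peak seen in replicate 1 alone, with 15 fragments and a fold of 5.71.

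In complex V the regions were weak, apart from the one at Atp5j. Atp5j, a subunit of the stalk that holds the head of the ATP synthase, had 32 and 43 fragments, a fold of 7.31 and 9.04 and an IDR of 0.0195. The replicate 2 summit lay at -30 bp from an annotated Atp5j start, 851 bp inside the Atp5j span, and 115 bp from an end of Gabpa, the gene of the DNA-binding subunit of GABP. Atp5md, a small membrane subunit, had 16 and 21 fragments. Atp5e, of the catalytic F1 head, had 14 and 17 fragments and the lowest mean fold of the 28, 4.53 ± 1.2 (SD, n = 2). Of the other F1 head genes, Atp5a1 and Atp5b, which form the catalytic ring, had a peak of replicate 2 only, and Atp5c1 and Atp5d had none. Atp5a1 stood out among genes of 1 replicate, with 36 fragments (25.2 to 49.8) and a fold of 11.8 in replicate 2, rank 317 of 3126, and no peak in replicate 1. That summit was 199 bp from an end of Atp5a1 and 82 bp from an end of Haus1. Atp5g1, Atp5h and Atp5k had replicate 2 peaks of 12, 28 and 24 fragments.

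**Figure D2:**
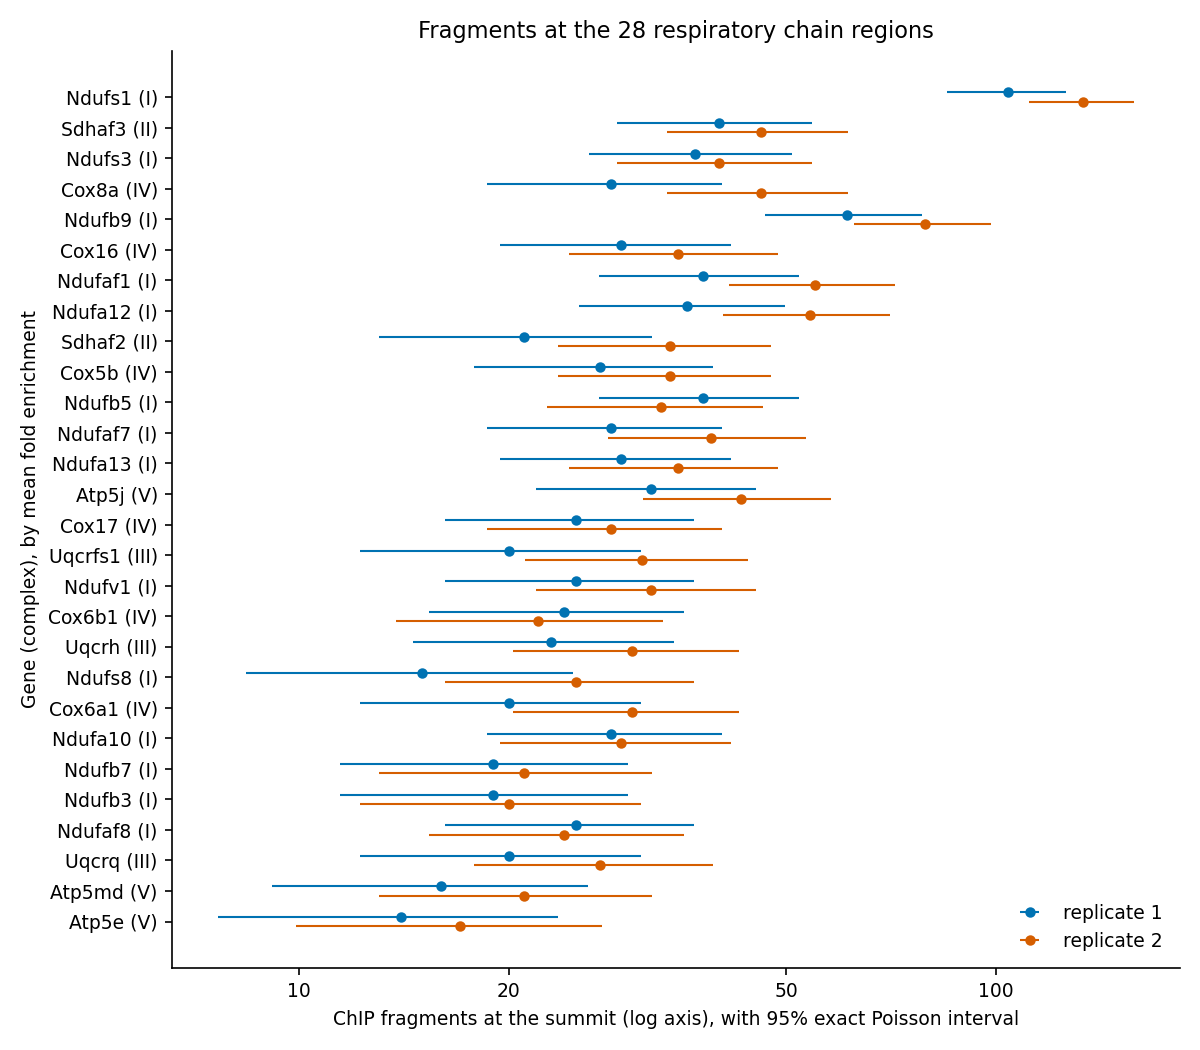
ChIP fragments at the summit (log axis) in replicate 1 and replicate 2 for the 28 genes with a region, with 95% exact Poisson intervals that cover counting error only, ordered by mean fold enrichment. Ndufs1 is highest with 104 and 133 fragments, Ndufb9 follows with 61 and 79, and the intervals of most other genes overlap one another.

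The peaks at these genes were about as strong as those at other gene ends. In replicate 1 the median fold enrichment was 7.50 over 32 peaks at respiratory chain genes and 7.20 over 1361 peaks at other gene ends. In replicate 2 it was 6.78 over 45 peaks and 6.88 over 2110 peaks. The order of the 2 medians thus turned between the libraries. Median summits held 25 and 24 fragments in replicate 1, and 27 and 25 in replicate 2. Among the 28 genes, fold was higher in replicate 2 at 17, with ratios of replicate 2 to replicate 1 from 0.621 to 2.09 and a median of 1.15. The regions had a median length of 173 bp, against 190 bp for the 1221 regions at other gene ends, and a median score of 518 against 443 in the combined list.

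**Figure D3:**
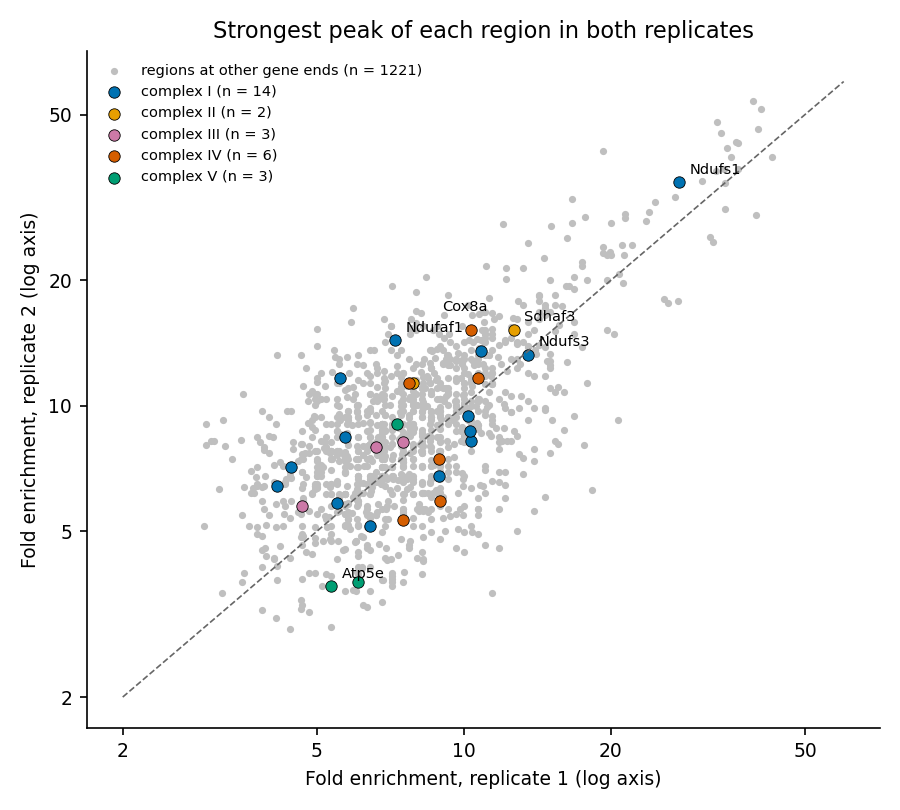
Fold enrichment of the strongest peak of each region in replicate 1 and replicate 2 (both log axes), for regions at the 28 respiratory chain genes, coloured by complex, and for 1221 regions at other gene ends (grey); the dashed line marks equal folds. The coloured points lie within the grey cloud, and Ndufs1, at 27.6 and 34.3, is the highest of them.

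An IDR of at most 0.05 (score of at least 540) was reached at 13 of the 109 genes (11.9%), against 3.12% of other genes. These were Ndufb9, Ndufs3, Ndufa12, Ndufaf1, Ndufaf7 and Ndufb5 of complex I, Sdhaf3 and Sdhaf2 of complex II, Uqcrfs1 of complex III, Cox8a, Cox16 and Cox5b of complex IV, and Atp5j of complex V. At an IDR of at most 0.01 (score of at least 830), Ndufb9 and Sdhaf3 were left, 1.83% of the genes, against 0.390% of other genes. Ndufs1, the strongest by fold, was not among either group, although its peak ranked 22 of 1860 and 17 of 3126 by fold.

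Summits lay at the starts of the genes. The promoter table matched 89 of the 109 genes and 24 of the 28 with a region. For these 24 the replicate 2 summit was a median of 55.5 bp from the nearest annotated start, and 19 (79.2%) lay within 100 bp of one. In replicate 1 the median was 41 bp and 18 of 24 lay within 100 bp. The middle of the signed distances was upstream, with medians of -24 bp in replicate 1 and -34 bp in replicate 2. The 2 replicates placed the summit a median of 7.5 bp apart, and at most 39 bp. Other genes with a region had a median distance of 54 bp in replicate 1 and 52 bp in replicate 2, close to the values of the 24. Counted at annotated starts in place of gene ends, 25 of the 89 genes had a region, against 7.29% of other genes in the table, 26 had a peak of replicate 1, against 7.81%, and 36 had a peak of replicate 2, against 11.9%.

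**Figure D4:**
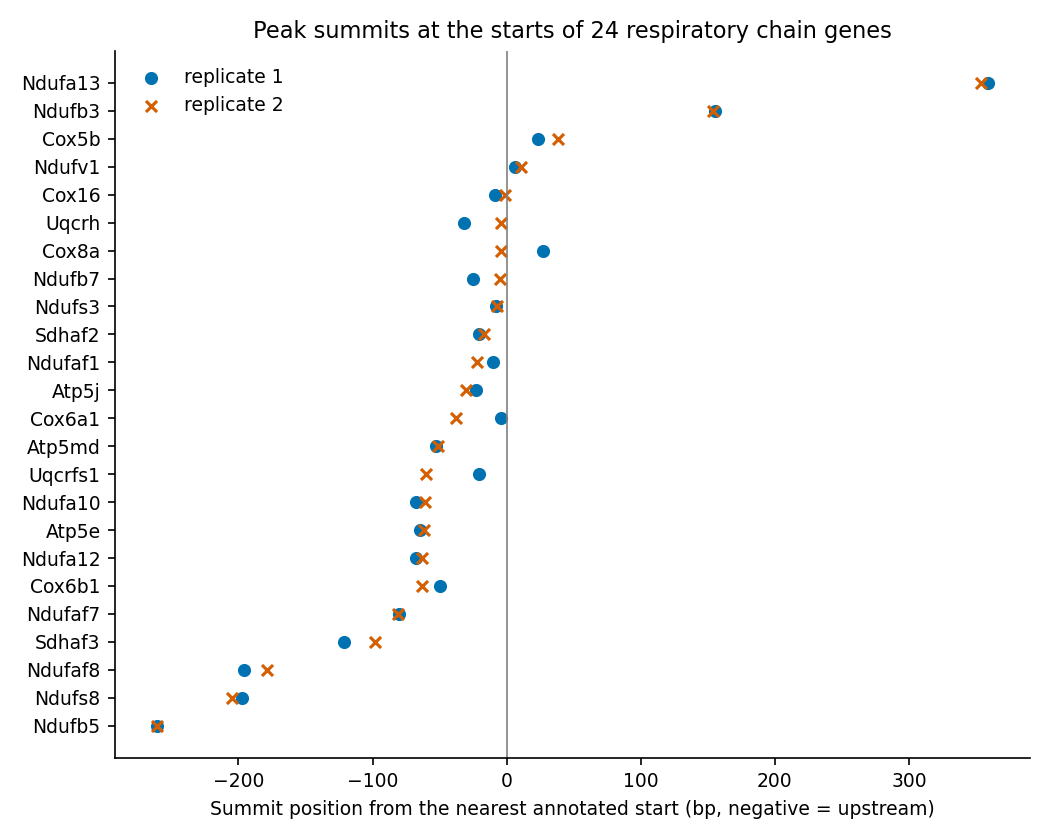
Position of the replicate 1 and replicate 2 summits from the nearest annotated start (bp, negative is upstream) for the 24 genes with a region and an entry in the promoter table. Most summits lie within 100 bp of the start, Ndufb5 has both at -261 bp, and Ndufa13 has them at 359 and 354 bp.

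Many of these summits also lay near a neighbouring gene. The replicate 2 summit was within 1 kb of an end of another protein-coding gene at 15 of the 28 genes (53.6%), against 638 of 1501 other genes with a region (42.5%). Measured to the ends of the spans, the neighbour was the nearer at 8 of the 28 (28.6%), against 21.5% of other genes with a region. The 8 were Ndufb9 (Tatdn1), Sdhaf2 (Cpsf7), Ndufb5 (Mrpl47), Ndufaf7 (Cebpz), Ndufa13 (Tssk6), Atp5j (Gabpa), Ndufaf8 (Tepsin) and Atp5md (Pdcd11). For Atp5j and Ndufa13 this holds only for the span ends: their replicate 2 summits were nearer to an annotated start of their own, at 30 bp against 115 bp and at 354 bp against 518 bp. Without all 8, Atp5j and Ndufa13 included, 20 of 109 genes (18.3%) had a region, against 5.48% of other genes counted the same way. The files do not tell which gene of a pair such a region belongs to.

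The promoters of genes with and without Deaf1 peaks differed in the ETS letters. CCGGAAG, searched on both strands, was present in the promoter windows of 15 of 24 respiratory chain genes with a region (62.5%, 95% exact Clopper-Pearson interval 40.6 to 81.2). The interval treats the 24 genes as independent draws and does not measure the spread between replicates. CCGGAAG was also present at 9 of the 12 respiratory chain genes with a peak but no region (75%). Of the 53 with no peak in either replicate, 3 (5.66%) held it; these were Atp5l, Sdhaf1 and Uqcr11, named after their values were seen. Over all 17274 protein-coding genes in the table the share was 13.1%. The same contrast was seen outside the respiratory chain, with 53.9% of 1215 other genes with a region and 8.23% of 15123 without a peak.

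Read the other way, 15 of 27 respiratory chain genes with CCGGAAG had a region (55.6%), and 9 of 62 without it (14.5%). Among other genes these shares were 29.3% of 2238 and 3.75% of 14947. Both respiratory chain shares lie above those of other genes with the same letters. CpG content, which is high in the promoters of broadly expressed genes, moved in the same direction. The median window held 23.5 CpG in the respiratory chain genes with a region and 20 in those without. In other genes it held 23 with a region and 13 without. Within windows of 20 to 29 CpG, 10 of 39 respiratory chain genes (25.6%) and 13.6% of 3779 other genes had a region, and within 10 to 19 CpG, 9 of 35 (25.7%) and 9.57% of 3564. At 30 CpG or more it was 5 of 10 (50%) and 10.4% of 2974. At 0 to 9 CpG it was 0 of 5 and 0.757% of 6868, so that count of 0 is near the share of other genes. The part of CpG content in the contrast of the ETS letters was not tested.

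TTCG, the letters of the Deaf1 half-site, were as common in respiratory chain genes with a region as in those without, counted as any match. They were in 17 of 24 windows of genes with a region (70.8%) and in 46 of 65 without (70.8%), against 52.6% of all genes. Among other genes they were in 72.6% of windows with a region and 51.0% of those without. At least 2 matches of TTCG were in 13 of 24 windows (54.2%) with a region and 24 of 65 (36.9%) without, and in 43.6% and 20.8% of those of other genes. TTCGGG, which contains TTCG, was in 6 of 24 (25%) and 12 of 65 (18.5%), against 9.47% of all genes. The NRF1 letters (GCGCA, any base, then GCGC) had the opposite order, with 2 of 24 windows (8.33%) of genes with a region and 19 of 65 (29.2%) of those without, against 7.25% of all genes. Among other genes the shares were 9.22% of 1215 with a region and 7.01% of 15970 without. A match is a run of letters and not a measured binding site.

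The ETS letters were also placed at the summits. In replicate 2, 23 of 32 summits that fell inside a promoter window of a respiratory chain gene had CCGGAAG in the window, with its centre a median of 20 bp from the summit. In replicate 1 it was 16 of 22 summits, at a median of 25 bp. At other genes, 855 of 1504 replicate 2 summits had it, at a median of 17 bp, and 617 of 998 replicate 1 summits, also at 17 bp. TTCG was in 25 of 32 replicate 2 windows, with a median distance of 41.5 bp, and at other genes in 1078 of 1504, at 53.5 bp. Around the replicate 2 summits of other genes, CCGGAAG went from 9.35 matches per kb in the 20 bp just after the summit to 0.427 in the bin that starts 80 bp after it, while TTCG had 4.17 and 4.61 in the same bins. Around the summits of respiratory chain genes CCGGAAG had 9.49 (6 matches) and 0, and TTCG had 6.33 (4 matches) and 1.92 (1 match), numbers too small to give the shape of the TTCG profile.

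**Figure D5:**
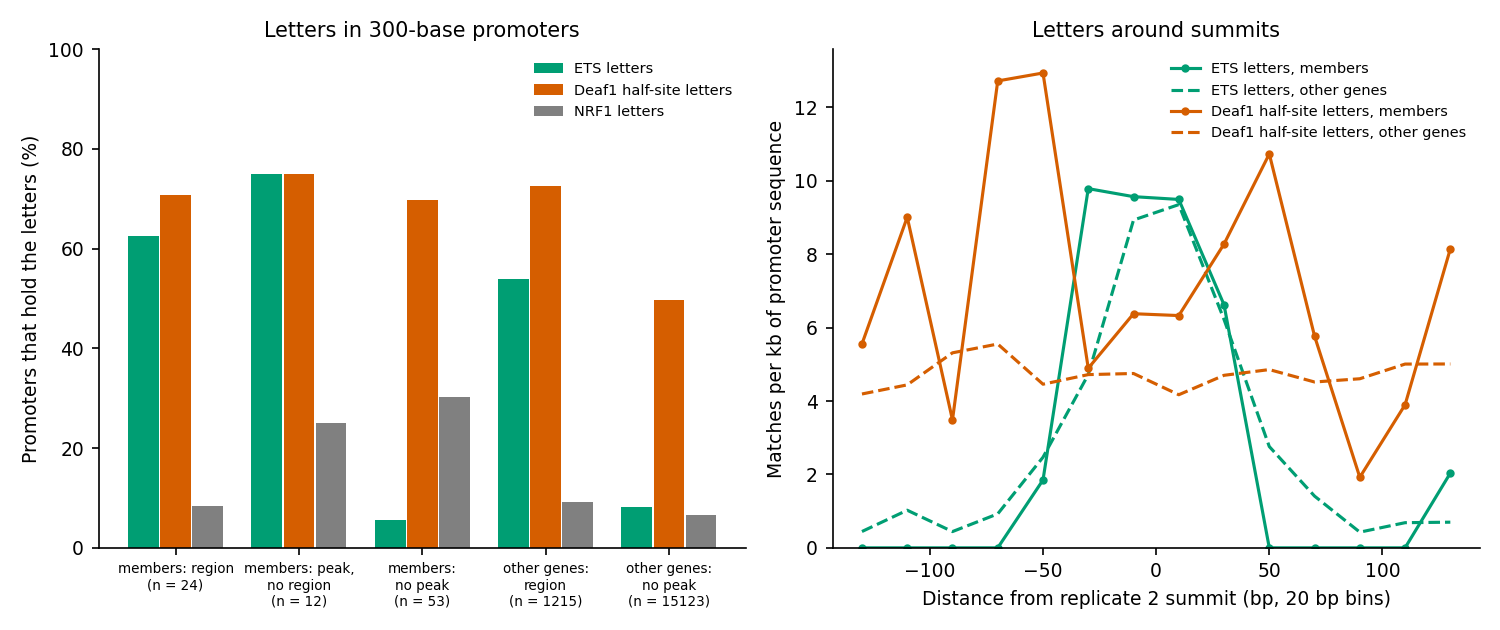
Left, share (%) of 300-base promoter windows that hold the ETS letters, the Deaf1 half-site letters or the NRF1 letters, for respiratory chain genes (members) and other genes grouped by Deaf1 peaks; right, matches per kb of promoter sequence by distance from the replicate 2 summit in 20 bp bins, solid for members (32 summits) and dashed for other genes (1504 summits). The ETS letters are in 62.5% of member windows with a region and 5.66% of those with no peak, and lie close to the summit, whereas the half-site letters are in 70.8% and 69.8% of the same windows and, around member summits, rest on 1 to 7 matches a bin.

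Genes that work with the respiratory chain but fall outside the symbol rule had similar shares. Of 39 such genes found in the table, 13 (33.3%) had a region, against 6.97% of other genes. They included Surf1, Sco1, Coa5, Coa6, Pet100 and Taco1, which serve the assembly or translation of complex IV, Bcs1l and Uqcc1 for complex III, and Acad9, Ecsit, Foxred1 and Timmdc1 for complex I. The thirteenth was Nfs1, the cysteine desulfurase of iron-sulfur cluster synthesis. Sco1, a copper chaperone, had a fold of 9.25 in replicate 1 and 13.3 in replicate 2, and Taco1, a translational activator, had 9.34 and 14.9. Cyc1, a complex III subunit that the symbol rule leaves out, had no peak in either replicate. Neither had Cycs, the cytochrome c that carries electrons from complex III to complex IV.

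Of 13 regulators of respiratory genes, 4 (30.8%) had a region, against 6.97% of other genes: Gabpa, Esrra, Tfb1m and Tfb2m. Esrra, an orphan nuclear receptor, had a fold of 9.99 in replicate 1 and 11.0 in replicate 2. Tfb2m, a mitochondrial transcription factor, had 6.86 and 7.95, and the related Tfb1m had 9.57 and 10.3. The Gabpa region is the one already given for Atp5j, with 7.31 and 9.04. The other 9, among them Nrf1, Ppargc1a, Tfam and Polrmt, had no peak in either replicate. Of all other protein-coding genes 11.7% had one.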

How the data were processed

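Deaf1 ChIP libraries of C2C12 cells were analysed from the deposited peak lists, 1 for each ChIP library and 1 combined. Per the submitters' processing notes the authors used FastQC 0.11.8, BWA 0.7.17-r1198, MACS2 2.1.2 and the build mm10 (GRCm38). The labels mention both formaldehyde fixation and native ChIP-seq, which was not resolved. The deposited fold enrichment is the peak caller's ratio over background, and its deposited p and q are −log10 values. The deposited score of the combined list follows the IDR of the pair, with 540 for 0.05; its 6 columns for single samples were not used. For 100% of 1860 and 3126 peaks, exactly 1 whole-number pileup gave the deposited fold and p, to within 5.07e-05 in −log10 p. Median summits held 22 and 23 fragments. Poisson intervals cover counting error only, at the 95% level.

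Genes, spans and promoter windows came from RefSeq tables of GRCm38.p6; spans carry no strand. Motifs were searched on both strands in Python 3.11.15. The recovery of fragment numbers and the matching of rows to gene ends were tested on simulated data, but the motif search was not. The members, lists and letters were chosen with earlier results of these data known, and no set test was made. Named were all members with a region or a peak, the Sdh subunits and the F1 head, and core subunits of complex I, of which not all are reported here; sequences are of the 8 largest mean folds with a promoter entry. The inputs were not analysed here. Alternatives covered score, distance, part of the gene, replicate, overlap, membership and letters.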

Additional observations from a re-analysis of the deposited data

How the results depend on the processing

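The share of respiratory chain genes with a region stayed above that of other genes under each alternative run for the whole list, with 26 genes within 500 bp, 31 within 5 kb, 29 anywhere in the span plus 1 kb and 25 of 89 at annotated starts. At a score of at least 540 the 109 genes kept 13 regions, with 6 in complex I, 1 in complex III, 3 in complex IV and 1 in complex V, and other genes had 3.12%. At a score of at least 830 there were 2, with 1 in complex I, 1 in complex II and 0 in complexes III, IV and V. Other genes had 0.390%, and with 8, 27 and 17 genes in those 3 complexes a count of 0 is near that share. Counting only summits nearer to the member than to another gene left 9 genes in complex I, 1 in complex II and 1 in complex V. Leaving out either replicate gave 30 to 42 genes in all, 2 to 4 in complex II, 7 to 12 in complex IV and 3 to 8 in complex V, and 7.51% to 11.2% of other genes. The share of windows with CCGGAAG was 58.3% at the score of 540 and 64.0% to 66.7% with either replicate alone. With CGGAAG in its place the share was 79.2%, and it could only rise, since CCGGAAG contains CGGAAG. All lie within the wide interval of 40.6 to 81.2, but the settings re-use many of the same genes, so this cannot show that the share is stable. Among respiratory chain genes without a region the share with CCGGAAG was 18.5%. It was 38.5% with CGGAAG and 26.0% at 540, so the contrast was smaller there. These alternatives were chosen after seeing the data. Of the 28 genes, 15 had no region at 540, 26 at 830 and 2 within 500 bp. No paired analysis was possible because the inputs, which share the ChIP libraries' numbers, were not analysed here, leaving 1 group. Depth limits single genes: most counting intervals overlap.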

Other observations

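Some summits lay between a respiratory chain gene and another gene of mitochondrial function; these pairs were picked out after their values were seen. The Ndufb5 summit of replicate 2 was 255 bp from an end of Ndufb5 and 47 bp from an end of Mrpl47, a mitochondrial ribosomal protein gene. The Sdhd peak, in replicate 2 only, was 23 bp from Sdhd and 29 bp from Timm8b, which encodes a small chaperone of protein import. Cox7a2 had no region at an end of its span but had one within 1 kb of an annotated start inside it, and Ndufaf3 and Ndufb10 had one only when the distance was widened to 5 kb. Among the 53 respiratory chain windows without a peak, 16 (30.2%) held the NRF1 letters and 3 the ETS letters CCGGAAG.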
